A study of Mus musculus with 4 samples.

Results

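Fatty acid synthesis from acetyl-CoA was followed through 9 genes in cultured mouse macrophages: the acetyl-CoA suppliers Acly, Acss2 and Aacs, the carboxylases Acaca and Acacb, the synthase Fasn, the malic enzyme Me1, and the transcription factors Srebf1 and Mlxipl. They were found by symbol in the platform annotation, where each had 1 probe set of its own, and they are 9 of the 22180 genes that had a probe set with a single symbol. The study asked how loss of Hilpda, a lipid droplet protein that inhibits adipose triglyceride lipase, alters transcripts in macrophages loaded with fatty acids. There were 4 groups with 1 Affymetrix array each: HilpdaΔMΦ knockout (KO) cells after 24 h, Hilpdaflox/flox wild-type (WT) cells after 24 h, KO cells after 12 h and WT cells after 12 h. All 4 received 600 µM of palmitate and oleate, mixed 1:2 and bound to albumin, so no group here was free of added fatty acid. The cells were bone marrow cells of mice aged 8 to 12 weeks, differentiated with L929-conditioned medium, and the WT mice were floxed littermates. RNA of 3 samples was pooled on each array, and the labels do not name the promoter that drove the deletion.

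With 1 array per group, no difference between 2 single arrays has a replicate error, and none was tested. Values are log2 expression after RMA, the authors' background correction and array normalization, and a gene was kept for counts when its mean over the 4 arrays was at or above 2.44, which left 13354 genes. Differences were counted from 1.5-fold upward, 0.585 on the log2 scale. These arrays measured pooled RNA of whole cultures, in which fewer cells of a type and less RNA per cell cannot be told apart.

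In this pathway, ATP citrate lyase (Acly) cuts cytosolic citrate into acetyl-CoA, acetyl-CoA synthetase (Acss2) makes it from acetate, and acetoacetyl-CoA synthetase (Aacs) activates the ketone body acetoacetate for lipid synthesis. Acetyl-CoA carboxylase forms malonyl-CoA, which fatty acid synthase (Fasn) extends into palmitate at the cost of NADPH, part of which malic enzyme (Me1) supplies. Malonyl-CoA made by the mitochondrial carboxylase encoded by Acacb also restrains fatty acid import into mitochondria. Srebf1 encodes the SREBP1 proteins, which are released from the endoplasmic reticulum by cleavage and switch on these enzymes, and Mlxipl encodes ChREBP, which responds to glucose metabolites. Srebf1 is itself a target of the oxysterol receptor LXR, and polyunsaturated fatty acids are known to lower SREBP1 activity.

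The promoters of the genes that differed most between the arrays are shown because SREBP and its partners act at promoters. Their binding to these windows was not measured. The 250 bases before each start were taken from RefSeq (GRCm38.p6), where all 9 genes matched and had 13 windows in all. They were searched on both strands for TCACNCCAC, the core of the sterol regulatory element, CACGTG, an E-box, CCAAT, the NF-Y box, and GGGCGG, the Sp1 box. Matches are in capitals. Fasn had 3 CCAAT matches, of which 2 overlap on opposite strands as CCAATTGG, and Aacs had none of the 4 motifs. Srebf1 had 3 listed starts, of which the 2 farthest upstream are shown, and which of them belongs to which SREBP1 isoform was not assigned. The Srebf1 window not shown, chr11:60210472-60210721, held 1 CCAAT and 2 GGGCGG matches.
Fasn, chr11:120824548-120824797, - strand: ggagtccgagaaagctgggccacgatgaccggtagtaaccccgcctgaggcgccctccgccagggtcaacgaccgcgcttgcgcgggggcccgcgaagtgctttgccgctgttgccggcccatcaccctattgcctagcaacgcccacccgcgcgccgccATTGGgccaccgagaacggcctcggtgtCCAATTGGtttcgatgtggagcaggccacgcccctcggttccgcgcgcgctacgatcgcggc
Aacs, chr5:125475623-125475872, + strand: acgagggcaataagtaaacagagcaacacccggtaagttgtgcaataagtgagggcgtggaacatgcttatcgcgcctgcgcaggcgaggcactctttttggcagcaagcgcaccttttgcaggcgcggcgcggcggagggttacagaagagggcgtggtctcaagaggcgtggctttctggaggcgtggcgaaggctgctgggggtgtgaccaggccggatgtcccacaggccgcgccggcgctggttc
Srebf1, chr11:60222582-60222831, - strand: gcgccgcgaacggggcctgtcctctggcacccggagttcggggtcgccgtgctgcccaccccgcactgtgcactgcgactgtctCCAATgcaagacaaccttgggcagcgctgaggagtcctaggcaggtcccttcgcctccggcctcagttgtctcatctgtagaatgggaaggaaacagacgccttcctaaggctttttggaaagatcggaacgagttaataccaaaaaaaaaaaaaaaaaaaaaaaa
Srebf1, chr11:60220628-60220877, - strand: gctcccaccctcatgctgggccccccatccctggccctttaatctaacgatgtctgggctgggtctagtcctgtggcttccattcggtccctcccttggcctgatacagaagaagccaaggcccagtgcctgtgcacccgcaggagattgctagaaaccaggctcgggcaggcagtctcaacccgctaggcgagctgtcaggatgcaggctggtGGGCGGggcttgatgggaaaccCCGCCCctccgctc
CCAAT was in 7 of the 13 windows (53.8%), against 33.8% of all 32851 windows in the table, and GGGCGG in 6 (46.2%), against 32.7%. TCACNCCAC was in 1 (7.69%, against 1.05%) and CACGTG in 1 (7.69%, against 6.02%), both in Mlxipl. A match is a run of letters and not a binding site.

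Hilpda was the first check of the labels. It was at 5.27 in KO and 5.47 in WT at 24 h, and at 5.41 in KO and 5.93 in WT at 12 h. Both differences, -0.20 at 24 h and -0.51 at 12 h (KO minus WT), were under 1.5-fold, and which part of the gene its probe set covers was not known, so the check is limited and the KO arrays are called so by their labels. The macrophage markers Adgre1, Csf1r, Cd68 and Lyz2 lay between 11.3 and 12.8 on all 4 arrays, and all 8 macrophage markers listed were past the level filter. Of these 8, 7 were lower in KO at 24 h, with a median of -0.27 and Itgam, an integrin gene, past 1.5-fold at -0.72. At 12 h 3 of the 8 were lower in KO, with a median of 0.01. With time 5 of the 8 were higher at 24 h in KO, with a median of 0.02, and 7 in WT, with a median of 0.27 and Mertk, a receptor for dying cells, past 1.5-fold at 0.65. Of the 8 neutrophil markers 0 were past it, of the 6 adipocyte markers measured 1 (Lipe), of the 6 dendritic cell markers 3 and of the 7 hepatocyte markers 3. Fibroblast markers were present, with 7 of 9 past the filter and Lum and Thy1 below it. Their mean level over the 9 was 4.55 in KO and 5.07 in WT at 24 h, and 4.23 in KO and 4.68 in WT at 12 h.

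Among the suppliers of acetyl-CoA, Aacs carried the largest difference of any member and Acly had the smallest range of the 3. Aacs was at 6.02 in KO and 5.86 in WT at 24 h, and at 6.15 in KO and 6.56 in WT at 12 h. The WT 12 h array stood above the other 3, so that in WT the level was lower by 0.70 at 24 h than at 12 h (1.63-fold), a difference that 350 of the 13354 genes kept equalled or exceeded on the lower side. In KO cells the same interval gave -0.13. Acly was at 8.60 in KO and 8.79 in WT at 24 h, and at 8.78 in KO and 8.89 in WT at 12 h, a range of 0.30 over the 4 arrays. KO was below WT at both times, by 0.19 at 24 h and 0.12 at 12 h. Acss2 was at 4.54 in KO and 4.19 in WT at 24 h, and at 4.26 in KO and 4.38 in WT at 12 h. It was the one member highest on the KO 24 h array, 0.35 above WT at that time (1.27-fold), with 1329 of the genes kept as high or higher.

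Fasn and the cytosolic carboxylase Acaca had the same order of arrays, highest in WT at 12 h and lowest in KO at 24 h. Fasn was at 7.17 in KO and 7.40 in WT at 24 h, and at 7.54 in KO and 7.87 in WT at 12 h. The genotype difference was -0.23 at 24 h and -0.34 at 12 h, and the time difference (24 h minus 12 h) was -0.37 in KO and -0.47 in WT. The KO 24 h array was thus the lowest, and each of the 4 differences was under 1.5-fold. Acaca, which makes the malonyl-CoA that Fasn uses, was at 5.79 in KO and 5.91 in WT at 24 h, and at 5.98 in KO and 6.17 in WT at 12 h. Its genotype differences were -0.12 at 24 h and -0.19 at 12 h, and its time differences -0.19 in KO and -0.26 in WT, all smaller than those of Fasn. Acacb was at 2.20 in KO and 2.28 in WT at 24 h, and at 2.30 in KO and 2.09 in WT at 12 h. It was the one member below the level filter, and 11.3% of 1405 olfactory, vomeronasal and trace amine receptor genes, taken as background signal, were as bright or brighter.

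Me1 differed slightly by genotype and hardly by time. It was at 5.64 in KO and 5.84 in WT at 24 h, and at 5.68 in KO and 5.87 in WT at 12 h. Both KO arrays lay below both WT arrays, with a genotype difference of -0.20 at either time, whereas the time differences were -0.04 in KO and -0.03 in WT. The KO level was 1.15-fold lower than WT at 24 h and likewise 1.15-fold lower at 12 h. Of the genes kept, 2764 were as low or lower at 24 h and 2000 at 12 h. How many of them had both KO arrays below both WT arrays was not counted.

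Of the regulators, Srebf1 separated by time. It was at 6.31 in KO and 6.26 in WT at 24 h, and at 6.69 in KO and 6.82 in WT at 12 h. Both 24 h arrays lay below both 12 h arrays, by 0.38 in KO and 0.56 in WT, as was also the case for Aacs, Acaca and Fasn. How many of the genes kept had this order was not counted. The difference in WT was just under the 1.5-fold rule, with 584 genes as low or lower. The genotype differences were 0.05 at 24 h and -0.13 at 12 h. Mlxipl was at 2.68 in KO and 2.56 in WT at 24 h, and at 2.59 in KO and 2.68 in WT at 12 h. It passed the filter narrowly, with 4.27% of the background receptor genes as bright, and its 4 values spanned 0.12.

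**Figure D1:**
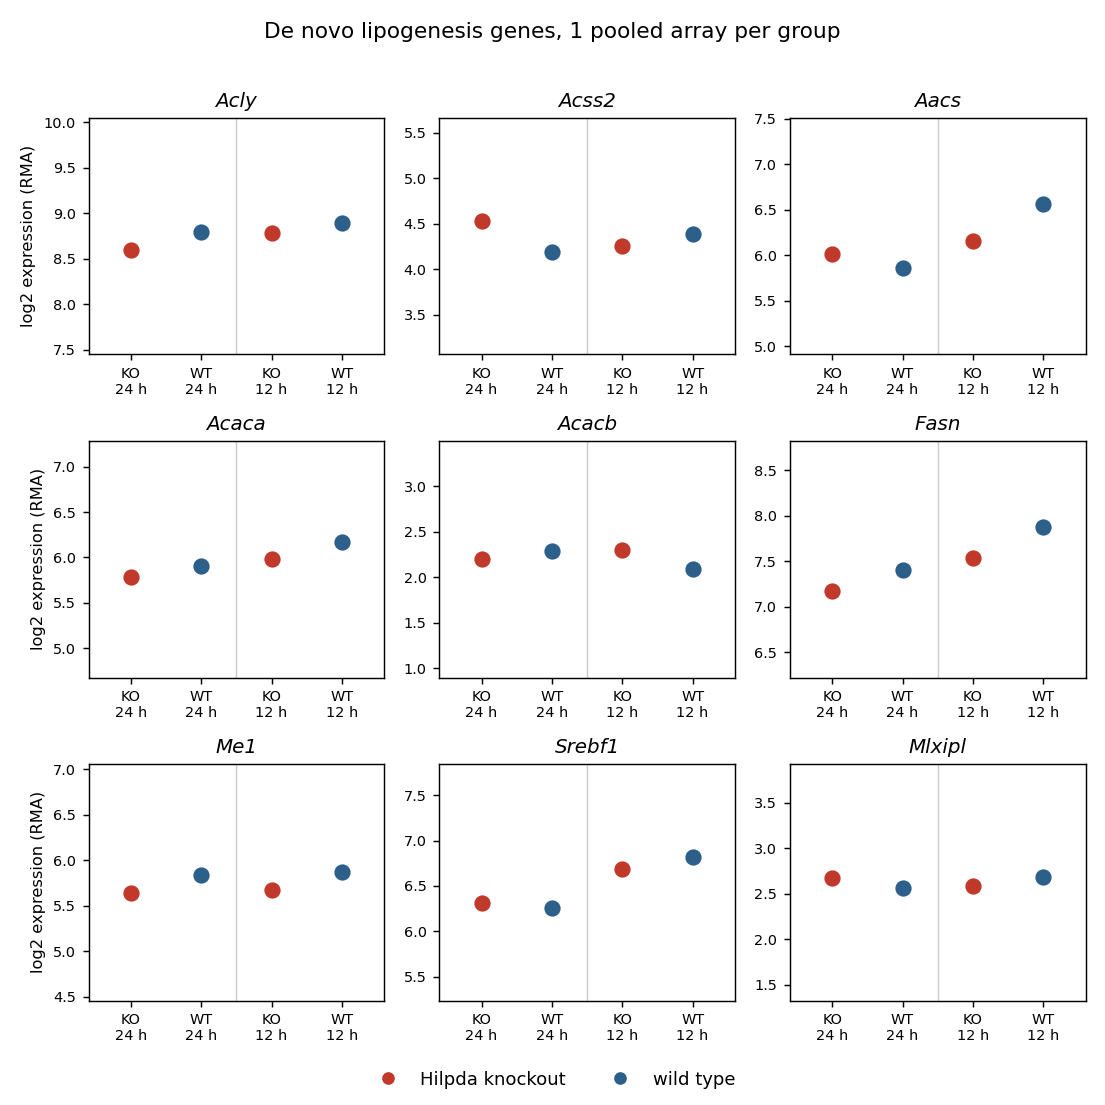
Log2 expression (RMA) of the 9 genes on each array, Hilpda knockout (KO) left of wild type (WT), 24 h left of 12 h. Each point is 1 array of pooled RNA, there are no error bars, and all panels cover the same span of log2 units. Aacs, Fasn and Srebf1 were highest in WT at 12 h (6.56, 7.87 and 6.82), and Me1 was lower in both KO arrays.

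Between the genotypes, 0 of the 9 genes differed by 1.5-fold at either time, and the directions were mixed at 24 h. At 24 h, 5 were lower in KO and 4 higher (Acss2, Aacs, Srebf1 and Mlxipl), with a median of -0.08 against 0.01 over all genes kept. Of the genes kept, 6.48% were past 1.5-fold at 24 h and 49% were below 0, so the members' counts were near the background. At 12 h, 8 of the 9 were lower in KO, all but the dim Acacb, with a median of -0.13 against 0.00 over all genes kept. Of the genes kept, 2.9% were past 1.5-fold and 49.4% were below 0 at 12 h. The lowest members at 12 h were Aacs at -0.41 and Fasn at -0.34, both inside the central 95% of genes, which ran from -0.50 to 0.49. Lower in KO at both times were 4 genes, Acly, Acaca, Fasn and Me1, as were 26% of the genes kept. The fibroblast markers were lower in KO beside them, with all 7 past the filter below 0 and medians of -0.86 at 24 h and -0.56 at 12 h. The macrophage markers were also lower in KO at 24 h, by the median of -0.27 given above. The part of either list in the members' differences was not tested.

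With time, 1 of the 9 genes differed by 1.5-fold in WT, Aacs at -0.70, and 0 did in KO. The share of all genes kept past 1.5-fold was 8.73% in WT and 6.29% in KO. In KO, 7 of the 9 were lower at 24 h than at 12 h, with a median of -0.13 against 0.00 over all genes kept, and 49.6% of these genes were below 0. In WT, 8 of the 9 were lower at 24 h, with a median of -0.19 against -0.01 over all genes kept, and 50.8% of these genes were below 0. The count in WT was 7 after quantile normalization or loess, where Me1 was at 0.0004 and 0.0014. Lower in both genotypes were 6 genes, Acly, Aacs, Acaca, Fasn, Me1 and Srebf1, as were 29.8% of the genes kept. The fibroblast markers lay on the other side, with medians of 0.51 in KO and 0.68 in WT, as did the macrophage markers in WT. The genotype difference at 12 h and the time difference in WT share the WT 12 h array, which was the highest of the 4 for 7 of the 9 genes and for 22.5% of the genes kept. These directions are therefore not independent of each other.

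**Figure D2:**
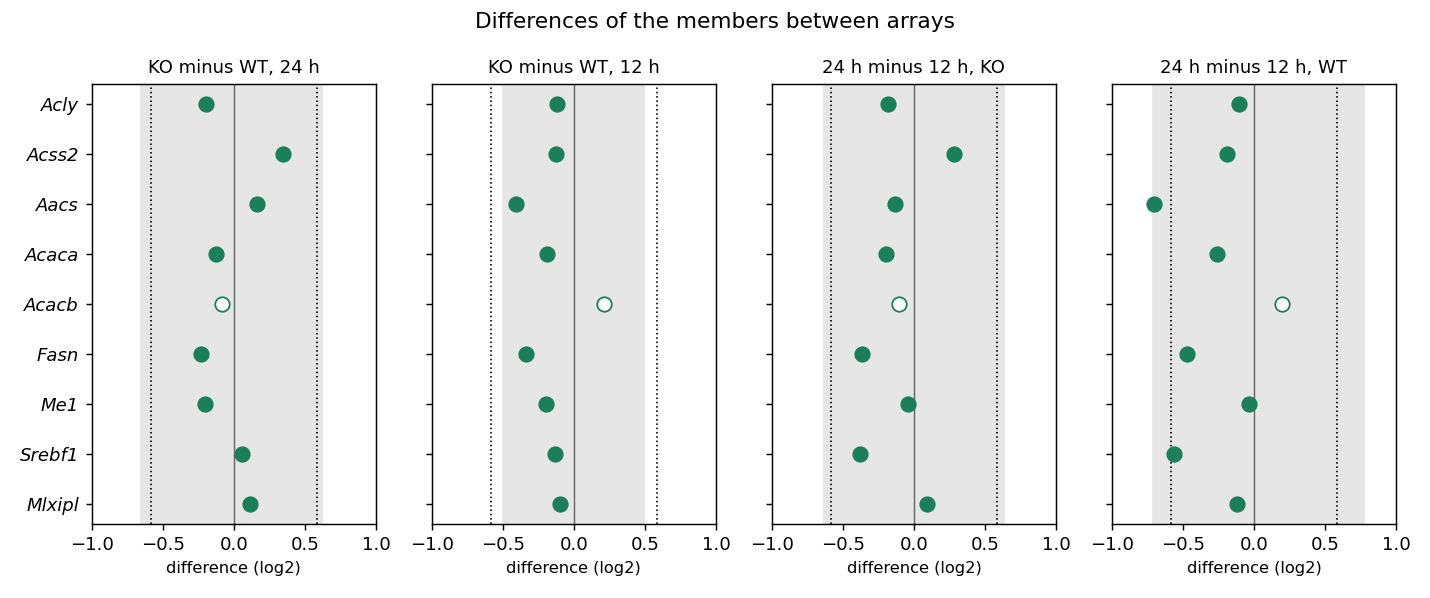
Log2 differences of the 9 genes in the 4 comparisons, KO minus WT at 24 h and 12 h and 24 h minus 12 h in KO and WT. Each point is the difference of 2 arrays with no error bar, the grey band is the central 95% of the 13354 genes kept, dotted lines mark 1.5-fold, and the open point is Acacb, below the level filter. Aacs in WT (-0.70) is the one point past a dotted line.

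A fit over all 4 arrays was the only test, with limma, once for genotype with time as an added term and once for time with genotype as an added term. Its 1 residual degree of freedom measures how far the genotype difference moved from 12 h to 24 h, which is no replicate error. For genotype, limma called 0 of 13354 genes at an adjusted p under 0.05 (0%), and 870 genes (6.51%) had an unadjusted p under 0.05. Fasn had the lowest adjusted p of the 8 members tested, 0.762, with a mean difference of -0.28 ± 0.11 (KO minus WT, SE) and KO lower at both times. Me1 followed at -0.20 ± 0.11 (SE) with a limma adjusted p of 0.793. For time, limma called 0 genes as well (0%), and 1763 (13.2%) had an unadjusted p under 0.05, among them 2 members. These were Srebf1, at -0.47 ± 0.12 (24 h minus 12 h, SE) with a limma adjusted p of 0.255, and Fasn, at -0.42 ± 0.11 (SE) with 0.273, both lower in both genotypes. Over the 7 settings tried, the limma adjusted p for time ran from 0.0787 to 0.402 for Srebf1 and from 0.0525 to 0.427 for Fasn. For Aacs the mean time difference was -0.42 ± 0.18 (SE), as large as that of Fasn but with more spread between the genotypes, and its limma adjusted p was 0.429.

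The genes around the pathway were taken as 8 lists of 106 names, of which 94 were measured and 87 were past the filter. Limma called 0 of the 87 for genotype or time at an adjusted p under 0.05. At an unadjusted limma p under 0.05 there were 10 for genotype and 27 for time, against 6.51% and 13.2% of all genes kept. Those for time included cholesterol genes such as Fdps, Stard4 and Cyp51, so the count does not describe the 8 lists alike. Among the genes that process SREBP or control its transcription, 11 of 13 were past the filter. At 24 h 1 of them was higher in KO by 1.5-fold, the LXR alpha gene Nr1h3, and 0 were lower, against 2.97% and 3.5% of all genes kept. With time 1 was lower in WT by 1.5-fold, Insig1, and 0 in KO. Of all genes kept, 3.24% were lower and 3.05% higher by 1.5-fold in KO with time, and 4.01% lower and 4.73% higher in WT. Insig1, which holds SREBP in the endoplasmic reticulum and is itself an SREBP target, was at 8.57 in KO and 8.78 in WT at 24 h, and at 8.86 in KO and 9.39 in WT at 12 h. It had the array order of Fasn, with a time difference of -0.61 in WT and a genotype difference of -0.53 at 12 h. Srebf2, which encodes SREBP2, the factor of cholesterol synthesis, and which is named here after its values were seen, was at 8.30 in KO and 8.72 in WT at 24 h, and at 8.78 in KO and 9.01 in WT at 12 h. Its genotype difference was -0.42 at 24 h, where that of Srebf1 was 0.05. Nr1h3, whose product induces Srebf1, was at 6.43 in KO and 5.76 in WT at 24 h, and at 6.08 in KO and 6.16 in WT at 12 h. The WT 24 h array stood lowest, 0.67 below KO at that time.

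The glucose-sensing targets Txnip and Arrdc4 held the largest genotype differences of the list around Mlxipl. Both encode arrestin-domain proteins that restrain glucose uptake and are known targets of the Mondo family, to which ChREBP belongs. Txnip was at 9.90 in KO and 10.95 in WT at 24 h, and at 9.68 in KO and 9.88 in WT at 12 h. Arrdc4 was at 4.72 in KO and 5.88 in WT at 24 h, and at 4.82 in KO and 5.12 in WT at 12 h. In both genes the WT 24 h array stood above the other 3. At 24 h KO was lower by 1.05 for Txnip (2.07-fold) and by 1.16 for Arrdc4 (2.24-fold), with 48 and 27 of the genes kept as low or lower. At 12 h the difference was -0.21 for Txnip and -0.30 for Arrdc4. In WT the 24 h value was above the 12 h value by 1.07 for Txnip and 0.76 for Arrdc4, and in KO the time difference was 0.22 for Txnip and -0.10 for Arrdc4. The other 6 genes of this list of 8, among them the partner genes Mlx and Mlxip, were under 1.5-fold in all 4 comparisons.

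**Figure D3:**
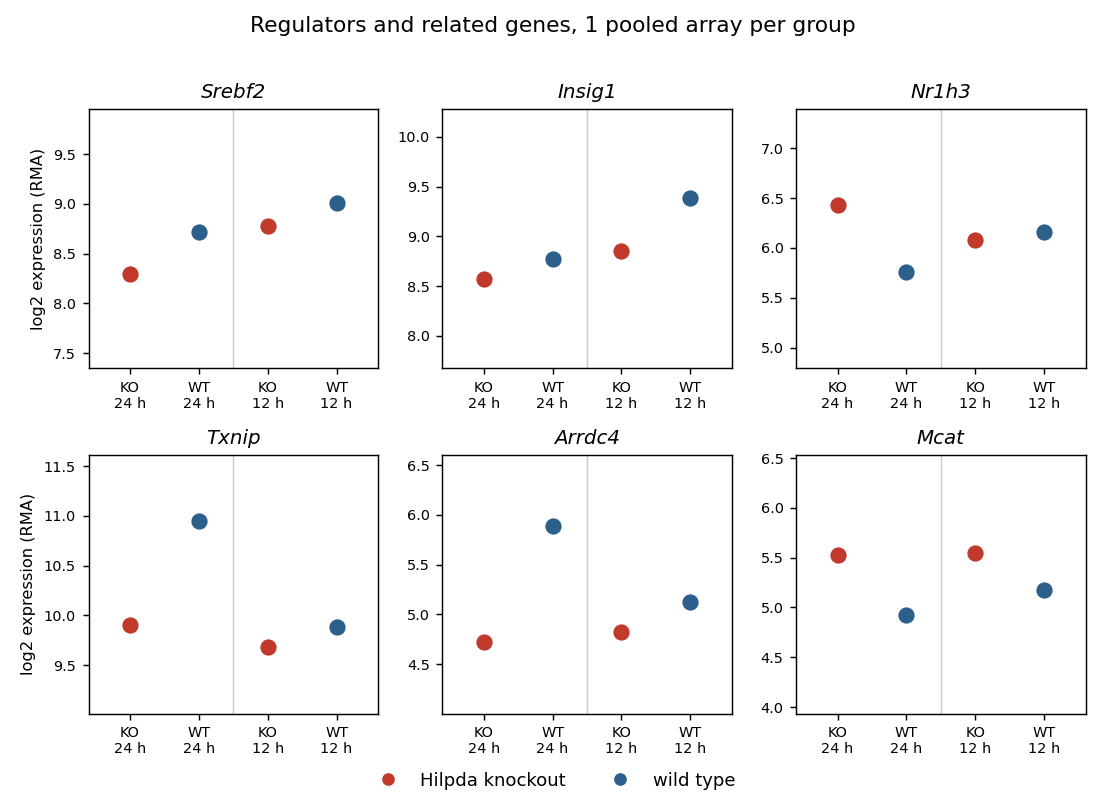
Log2 expression (RMA) of 6 related genes on each array, KO left of WT and 24 h left of 12 h. Each point is 1 array of pooled RNA with no error bar, and all panels cover the same span of log2 units. Txnip and Arrdc4 stand high in WT at 24 h (10.95 and 5.88), and Insig1 in WT at 12 h (9.39).

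Most of the supply and control genes of the pathway differed little. Among the substrate and NADPH supply genes 8 of 12 were past the filter and among the regulators of acetyl-CoA carboxylase 10 of 11, and 0 of either were past 1.5-fold in any comparison. Their medians lay between -0.09 and 0.08. With time the 8 supply genes ran from -0.28 to 0.57 in KO and from -0.47 to 0.55 in WT. The highest in both was Acss1, just under 1.5-fold and named after its values were seen. The 10 regulators ran from -0.09 to 0.36 in KO and from -0.46 to 0.36 in WT. G6pdx and Acat2, on the supply list, had no probe set with a single symbol and were not measured. Of the 11 genes of mitochondrial fatty acid synthesis, a separate pathway that serves lipoate production, 10 were past the filter, and 1 was past 1.5-fold, Mcat, the mitochondrial malonyl transferase. Mcat was at 5.53 in KO and 4.93 in WT at 24 h, and at 5.54 in KO and 5.17 in WT at 12 h, so both KO arrays lay above both WT arrays, by 0.60 at 24 h and 0.37 at 12 h. Fasn lay on the other side, with both genotype differences below 0.

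The desaturase genes Scd1 and Fads2, which act downstream of Fasn or beside it, were lower in KO at both times. Of 15 desaturation and elongation genes past the filter, 7 were lower in KO at 24 h (median 0.03) and 10 at 12 h (median -0.05), so the list as a whole was mixed. Past 1.5-fold were Scd1 and Fads2 on the lower side and the elongase gene Elovl7 on the higher side at 24 h, and Scd1 on the lower side at 12 h, where 1.4% of all genes kept were lower by 1.5-fold. Scd1, the desaturase that makes oleate, had genotype differences of -0.95 at 24 h and -0.67 at 12 h, and Fads2, which desaturates polyunsaturated precursors, had -0.87 at 24 h and -0.42 at 12 h. Those of Fasn, -0.23 at 24 h and -0.34 at 12 h, had the same sign and were smaller. Scd2, on the same list, had no probe set with a single symbol and was not measured.

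With time the same enzymes went both ways. In KO 2 were higher by 1.5-fold at 24 h than at 12 h, Scd1 at 0.60 and Hacd4, a dehydratase of chain elongation, at 0.68, and 2 were lower, Fads2 at -0.70 and the elongase gene Elovl6 at -0.60. In WT 4 were higher, Scd1 at 0.88, Hacd4 at 1.25, Fads3 at 0.67 and Elovl2 at 0.59. There 2 were lower, Elovl7 and Hacd2, both at -0.83. Elovl2 was dim in WT, at 2.91 at 24 h and 2.32 at 12 h, and Elovl7 was at 2.62 and 3.45. Of the background receptor genes, 5.05% were past 1.5-fold with time in WT. Fads2 was at -0.26 in WT. Scd1 thus had Fasn's sign between the genotypes and the opposite sign with time. By their medians the fibroblast markers had the signs of Scd1 throughout. These were -0.86 at 24 h and -0.56 at 12 h between the genotypes, and 0.51 in KO and 0.68 in WT with time. The part of fibroblasts in the Scd1 values was not tested. Elovl2, Elovl6, Fads3 and Hacd2 are named after their values were seen, as are Fdps, Hsd17b7, Mvk and Stard4 among the cholesterol genes and Itgam and Mertk among the markers.

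The genes of cholesterol synthesis and uptake, which SREBP2 controls, were lower in KO at 12 h by more than the 9 lipogenesis genes in the median. At 24 h 10 of the 15 past the filter were lower in KO and 5 higher, with a median of -0.10 and 1 past 1.5-fold, Mvk, mevalonate kinase, at -0.69. At 12 h all 15 were lower in KO, as were 49.4% of the genes kept. The median was -0.49, against -0.13 for the 9 lipogenesis genes. Past 1.5-fold at 12 h were 4, Hsd17b7 at -0.83, Fdft1 and Fdps, both at -0.75, and Cyp51 at -0.74. Of all genes kept, 1.4% were lower by 1.5-fold at 12 h. With time all 15 were lower at 24 h in both genotypes, as were 29.8% of the genes kept. The median was -0.48 in KO and -0.77 in WT, against -0.13 in KO and -0.19 in WT for the 9 lipogenesis genes. By 1.5-fold 4 were lower in KO, Fdps, Cyp51, Stard4 and Fdft1, and 13 in WT, against 3.24% and 4.01% of all genes kept. All 15 were highest on the WT 12 h array, as were 22.5% of the genes kept. The genotype difference at 12 h and the time difference in WT share that array. Fdft1, squalene synthase, and Cyp51, the lanosterol demethylase, were both at -1.24 in WT with time. Sqle, squalene epoxidase, was at -0.48 in KO and -1.12 in WT, and Hmgcs1, which makes HMG-CoA, at -0.51 in KO and -1.01 in WT.

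LXR targets, with which Srebf1 shares its inducer, were mixed. Of the 10 past the filter 7 were lower in KO at 24 h (median -0.15) and 3 at 12 h (median 0.05). The sterol exporter gene Abca1 was the 1 target past 1.5-fold between the genotypes, lower in KO by 1.32 at 24 h (2.50-fold), with 17 of the genes kept as low or lower, and at -0.02 at 12 h. It was at 7.99 in KO and 9.31 in WT at 24 h, and at 7.19 in KO and 7.22 in WT at 12 h, so the WT 24 h array stood highest, as for Txnip and Arrdc4. With time 6 of the 10 were lower at 24 h in KO (median -0.02) and 4 in WT (median 0.17). Abca1 was higher at 24 h by 0.80 in KO and 2.10 in WT, and Abcg1, another exporter gene, by 0.47 in KO and 0.62 in WT. Smpdl3a, a phosphodiesterase gene, was at -0.29 in KO and -0.70 in WT. Srebf1, at -0.38 in KO and -0.56 in WT, lay on the side of Smpdl3a and opposite to Abca1 and Abcg1.

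**Figure D4:**
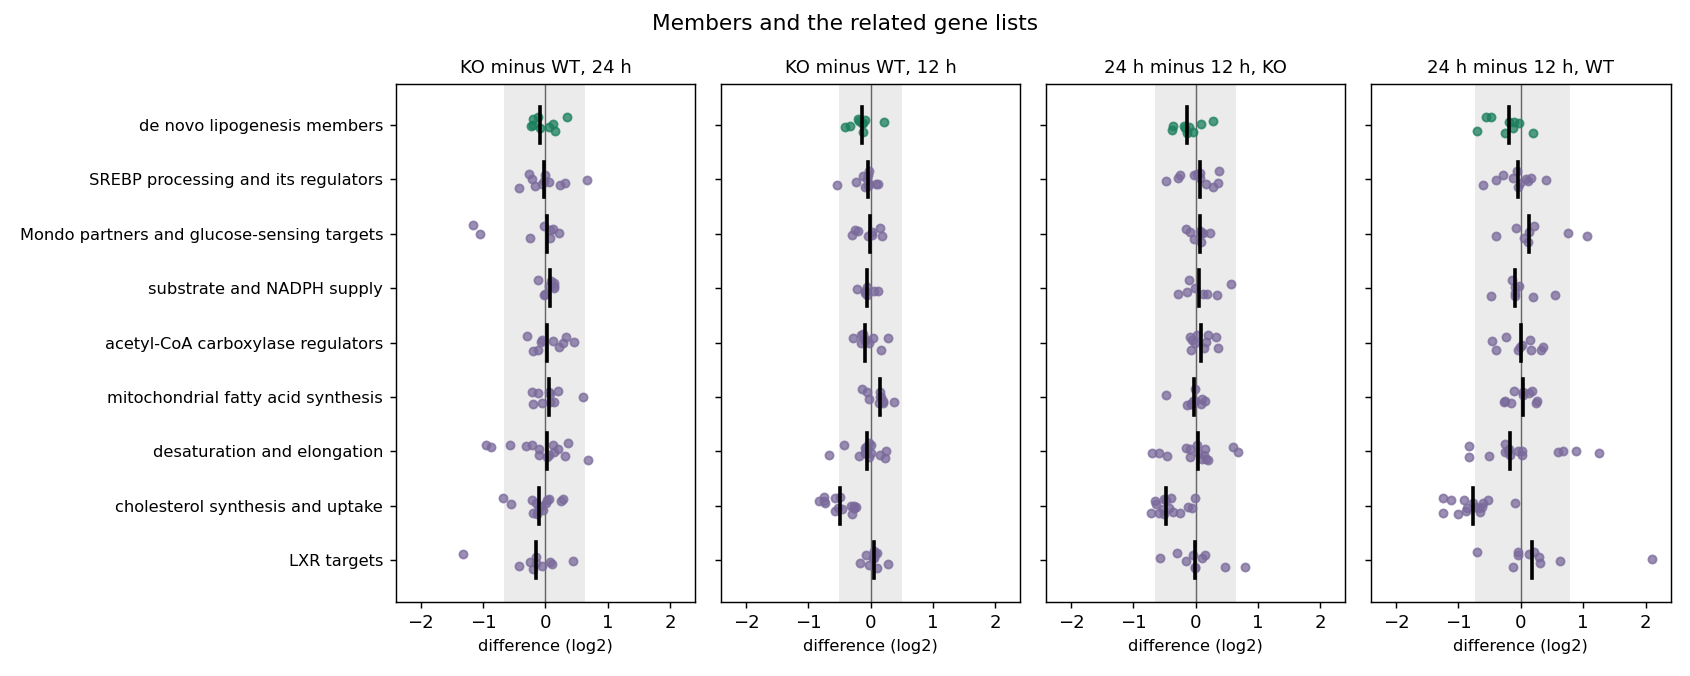
Log2 differences of the 9 lipogenesis genes (green) and of the genes of the 8 related lists past the filter (purple), KO minus WT at 24 h and 12 h and 24 h minus 12 h in KO and WT. Each point is a gene, black bars are medians of a list, and the grey band is the central 95% of the genes kept. The medians of the 9 genes are -0.08, -0.13, -0.13 and -0.19 in these 4 comparisons, with Aacs reaching -0.70 in WT with time, where the cholesterol genes have the lowest median of the lists (-0.77).

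Aacs and Fasn were the members whose 4 arrays ranged by at least 1.5-fold (0.703 and 0.702 on the log2 scale). Their nearest profiles were sought among the genes kept, with clone, predicted-gene and small RNA names passed over. Likeness was the root mean square distance between the 4 values, each gene centred on its own mean. Nearest to Aacs were Vwa1 (0.0166), Tcl1b1 (0.0202) and Acot11 (0.0399), an acyl-CoA thioesterase gene. Nearest to Fasn were Zfp72 (0.0230), Il1rl2 (0.0295) and Ccn4 (0.0314), none of them among the lists above. With 4 arrays such a likeness rests on 4 values and describes these arrays only.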

How the data were processed

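Transcripts were measured with 1 Affymetrix array per group, each with RNA pooled from 3 samples, and groups were taken from genotype and time in the titles. The authors deposited log2 values, 1 per probe set and array. Per the submitters' processing notes they come from RMA, with no version stated. RMA makes the arrays' distributions alike, so a shift of all transcripts would not be visible. Of 41345 probe sets, 23521 had 1 symbol in the platform annotation, 1814 had several and 16010 had none listed, and only the first were named. A gene was represented by its probe set of highest mean, and kept if that mean reached the 40th percentile of the probe sets with 1 symbol. The arrays correlated pairwise at 0.984 to 0.988. Fits used limma 3.58.1 in R 4.3.3 with Benjamini-Hochberg adjustment over 13354 genes, and were tested on simulated data. The simulated genotype effect was the same at both times. The run therefore cannot show how the fit behaves where that effect changes with time. The number of arrays limits the precision.

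The members and lists were chosen with earlier results of these data known. Named were the 9 members, Hilpda, up to 4 genes of each list with the largest difference past 1.5-fold, 4 macrophage markers and the 3 nearest profiles of members ranging by 1.5-fold. Alternatives were all genes without the level filter, the 60th percentile as filter, fold rules of 1.3 and 2, the mean over probe sets, median centring, quantile normalization, loess on level (span 0.3), and a trended prior variance in limma. Other probe sets of a member could not be tried, since each had 1.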

Additional observations from a re-analysis of the deposited data

Results flagged for a closer look

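Flagged were named genes whose genotype difference (KO minus WT) had opposite signs at 24 h and 12 h, or whose time difference had opposite signs in KO and WT. With 1 array per group the difference was not tested, and 46.5% of the genes kept had opposite genotype differences and 40.8% opposite time differences. The values below are the genotype difference at 24 h minus that at 12 h, for which the central 95% of genes ran from -0.78 to 0.74.

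Of the 9 lipogenesis genes 5 had opposite genotype differences, and 3 of these opposite time differences too. The value was 0.57 for Aacs, with genotype differences of 0.16 at 24 h and -0.41 at 12 h, and 0.47 for Acss2, with 0.35 at 24 h and -0.13 at 12 h. It was 0.21 for Mlxipl, 0.19 for Srebf1 and -0.30 for Acacb. Values as large in size were held by 1449 of the 13354 genes for Aacs and by 2122 for Acss2.

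Among the related genes the value was 0.76 for Nr1h3 and -0.86 for Arrdc4, both outside that central range, 0.63 for Sqle, -0.57 for Hacd4 and -0.16 for Abcg1. Of those named after their values were seen it was 0.86 for Hsd17b7, also outside the range, 0.37 for Hacd2 and -0.44 for Elovl2. Of the nearest profiles of Aacs, which share its pattern by choice, Vwa1 was at 0.57, Tcl1b1 at 0.50 and Acot11 at 0.47. Of the macrophage markers Itgam was at -0.66, Csf1r at -0.33, Adgre1 at -0.25, Mertk at -0.25 and Cd68 at 0.13.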

How the results depend on the processing

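No paired analysis was possible because each group had 1 array and the labels carry no replicate numbers. The signs of the members' differences were the same under the scalings run, except Me1 with time in WT, and no member crossed 1.5-fold under another scaling. The count of members past the fold rule was 1 at 12 h between the genotypes and 3 with time in WT under a rule of 1.3-fold, and 0 with time in WT under a rule of 2-fold. Over all genes, the 1.3-fold rule counted 2287 genes between the genotypes at 24 h and 1321 at 12 h, and 2242 with time in KO and 2728 in WT. The 2-fold rule counted 103 and 34, and 150 and 260. With the filter at the 60th percentile, which kept 9089 genes, 411 were past 1.5-fold between the genotypes at 24 h and 101 at 12 h. With time, 434 were past 1.5-fold in KO and 698 in WT. With no level filter 628 of 22180 genes were past it between the genotypes at 12 h, against 387 of 13354. For time, limma called 114 genes with the filter at the 60th percentile, 38 after median centring and 539 with a trended prior variance, and 0 of the members in any of these; for genotype it called 0 in all 7 settings, with 656 to 1231 genes at an unadjusted p under 0.05. A fold rule or a level filter changes such counts by its definition. Why the limma counts for time differed between settings was not tested. Signal over background limits what can be said of Acacb, Mlxipl and Elovl2, and of Elovl7 on the WT 24 h array.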
